A study of Papio anubis and Macaca mulatta with 6 samples.

Results

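Expression of 10 genes that build the meiotic chromosome axis or act in meiotic recombination was described in testis cells of 2 olive baboons and 2 rhesus macaques. The genes were SYCP1, SYCP2, SYCP3, SMC1B, MEIOB, HORMAD1, STAG3, REC8, MND1 and TEX15, chosen by symbol. They are 10 of 34178 listed baboon genes and 9 of 21356 listed rhesus genes, because MND1 matched no rhesus symbol and was not analysed there. Germ cells were cells with at least 1000 unique molecular identifiers (UMIs) in which at least 2 of DAZL, MAEL, TDRD1, PIWIL2, MAGEB2 and SOHLH1 were detected. These 6 genes, of which MAGEB2 matched no rhesus symbol, are called gate genes here, and somatic cells were cells of the same minimum depth with none of them. The gate gave 255 germ cells and 19710 somatic cells in the baboon, and 125 germ cells and 22203 somatic cells in the rhesus. A further 1727 baboon and 304 rhesus cells had exactly 1 gate gene and were described apart.

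The animals were prepubertal, and no treatment and no genetic change is given for them. Their testes were taken at necropsy and dissociated with collagenase and then trypsin, with a wash between these steps meant to remove interstitial cells, so the numbers of somatic cells may not be those of the tissue. Baboon 1 (libraries 1A and 1B) and rhesus 2 (libraries 2A and 2B) had 2 libraries each, and baboon 2 and rhesus 1 had 1 each. All are 10x Genomics 3′ libraries, of kit version 3 for baboon 2 and of version 2 otherwise, so chemistry and animal cannot be told apart in the baboon. The deposited labels give ages of 15 and 20 months for the baboons and newborn and 26 months for the rhesus, the methods of the study give the reverse, and no age could be tied to an animal.

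Meiosis needs a protein axis along each chromosome, on which the chromatin loops are anchored. Cohesin complexes with the meiotic subunits SMC1B, STAG3 and REC8 hold the sister chromatids on this axis, SYCP2, SYCP3 and HORMAD1 are laid onto it, and SYCP1 then zips the axes of homologous chromosomes together in the synaptonemal complex. MEIOB, MND1 and TEX15 act in the repair of the DNA breaks that become crossovers. In a prepubertal testis the germ cells are spermatogonia and their precursors, which divide by mitosis and have not entered meiosis, and transcripts of meiotic genes can be present in them before the proteins are put to use. In body cells many genes of this kind are held silent, in part by a Polycomb complex that is recruited through short promoter sequences.

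The promoters of the 10 genes were read from the rhesus genome (Mmul_10, RefSeq gene starts), from 250 bases before to 50 bases after the start. Both strands were searched for GGCGGGAA and for the E-box CACGTG. GGCGGGAA was found in 2 of the 10 promoters, those of SYCP2 and HORMAD1, and in 711 of all 20768 promoters (3.42%). CACGTG was found in 2, those of STAG3 and TEX15, and in 1604 of all (7.72%), and no promoter of the 10 held both. The promoters of SYCP2 (Mmul_10, chr10:95086302-95086571, minus strand), HORMAD1 (chr1:100409905-100410174, plus strand) and STAG3 (chr3:42371418-42371687, plus strand) are printed up to base 20 of the transcript because they hold a match, in the direction of the gene, with the match in capitals. In SYCP2 the match lies on the other strand and so reads TTCCCGCC. They were picked after the matches had been found, and a match is a description of the letters only.
SYCP2: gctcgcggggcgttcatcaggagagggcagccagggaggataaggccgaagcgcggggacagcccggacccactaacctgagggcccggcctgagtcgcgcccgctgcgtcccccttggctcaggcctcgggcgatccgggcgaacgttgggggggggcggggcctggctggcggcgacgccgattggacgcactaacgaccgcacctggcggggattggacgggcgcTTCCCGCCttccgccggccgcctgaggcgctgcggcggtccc
HORMAD1: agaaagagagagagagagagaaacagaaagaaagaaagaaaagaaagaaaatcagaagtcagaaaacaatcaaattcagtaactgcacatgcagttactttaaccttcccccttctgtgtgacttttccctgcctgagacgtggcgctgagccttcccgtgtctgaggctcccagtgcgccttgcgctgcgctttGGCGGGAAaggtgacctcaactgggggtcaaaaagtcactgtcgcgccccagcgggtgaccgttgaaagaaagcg
STAG3: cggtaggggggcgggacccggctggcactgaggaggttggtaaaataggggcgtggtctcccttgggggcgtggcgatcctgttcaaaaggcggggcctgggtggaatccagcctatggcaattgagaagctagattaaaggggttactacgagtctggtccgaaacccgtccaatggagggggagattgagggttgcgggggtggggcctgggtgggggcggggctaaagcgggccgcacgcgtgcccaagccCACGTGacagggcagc
The match began at position -22 in SYCP2, -55 in HORMAD1 and 5 in STAG3, counted from the start of the gene. CpG dinucleotides numbered 54 in the promoter of MEIOB, 40 in MND1, 38 in SYCP2 and 32 in SMC1B, against a median of 16 over all promoters. SYCP1 (6), REC8 (7) and SYCP3 (12) lay below that median. The low and the high promoters in CpG were both found among the genes with the largest germ cell fold changes given below, SYCP1 and SMC1B.

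Counting every barcode, a library had from 16875294 to 49803025 UMIs, and it gave 5021 to 10400 cells of at least 1000 UMIs, with medians of 1615 to 2971.5 UMIs per cell. Germ cells were deeper than somatic cells, with medians of 12133 against 2072.5 UMIs in the baboon and 5545 against 1624 in the rhesus. A gate on detected genes favours deeper cells, and its part in this gap was not tested. Baboon cells with 0, 1, 2 and 3 gate genes had medians of 2072.5, 3482, 8494 and 5989 UMIs. Because depth differed, levels are given as CPM, the UMIs of a gene scaled to a common total of all UMIs in a class. A 3′ count is not scaled to gene length, and levels are compared between cells, not between genes. Rhesus 2 had only 22 of the 125 rhesus germ cells, 13 in library 2A and 9 in library 2B. At most 136 cell barcodes were shared by any pair of libraries, or up to 1.58% of a library. The gate was checked with DDX4, DND1, RHOXF1, SALL4 and MAGEA4, markers of early germ cells that it does not use, and the 4 that could be tested in each species were higher in germ cells, while MAGEA4 was not analysed in the baboon and had no UMI in rhesus germ cells. The germ cell class of the baboon also held UMIs of all 5 Sertoli cell markers (SOX9, DHH, AMH, FATE1 and CLDN11), summed to 1011 CPM in baboon 1 and 5407 in baboon 2, against 6617 and 6563 in somatic cells. In the rhesus the same sum was 659 and 216 in germ cells and 3550 and 2855 in somatic cells. Rhesus germ cells also held UMIs of Leydig cell markers (INSL3, STAR, CYP17A1 and CYP11A1), at 356 and 341 CPM against 2917 and 1142 in somatic cells. Their stroma markers, listed below, summed to 370 and 174 against 4779 and 3785. Levels by the number of gate genes, with the Sertoli cell markers beside them, are given below. Germ and somatic cells were compared with edgeR on UMIs summed per animal and class (n = 2 animals per species). The p-values rest on the spread between 2 animals, which edgeR estimates in part from all genes together. The main comparison did not use the pairing of both classes within an animal, and an alternative with the animal as a block did.

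All 3 synaptonemal complex genes were higher in germ than in somatic cells in both species. SYCP1, the transverse filament that bridges paired axes, stood at 117 CPM in the 68 germ cells of library 1A, 90.4 in the 37 of library 1B and 56.7 in the 150 of baboon 2. In somatic cells of the same libraries it stood at 0.253, 0.0881 and 0.455, so each germ cell value lay far above each somatic value. In rhesus 1, 2A and 2B the germ cell levels of SYCP1 were 66.9, 83.2 and 55.8 and the somatic levels 1.62, 0.162 and 0. SYCP1 was higher in germ cells by 7.53 on the log2 scale in the baboon (SE 0.64, adjusted p = 0.00140) and by 5.82 in the rhesus (SE 0.94, adjusted p = 0.00223). Barcodes with 10 to 100 UMIs, which hold mostly free RNA, had 2.78, 2.11 and 8.36 CPM of SYCP1 in the baboon libraries, more than the somatic cells had. The gene lies on chromosome 1 in both species (Panubis1.0, 113200442 to 113321434, and Mmul_10, 109251925 to 109364026, minus strand) and overlaps no other annotated gene.

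SYCP2 and SYCP3 coat the unpaired axis and become the lateral elements of the complex. The 3 baboon libraries had SYCP2 at 37.0, 43.9 and 9.27 CPM in germ cells, against 0.202, 0.264 and 0.195 in somatic cells. Baboon 2 had the low germ cell value, and it was still far above every somatic value. SYCP2 was higher in germ cells by 6.29 in the baboon (log2, SE 0.89, adjusted p = 0.00572). In the rhesus, where SYCP2 rested on 8, 1 and 4 germ cell UMIs, the difference was 5.82 (SE 1.02, adjusted p = 0.00305). Somatic cells of rhesus 1 and 2 had 4 and 2 UMIs of it. A gene this low in somatic cells passes the filter on low counts only through the germ cells, so this difference is a description. Without library 2B, and with cells of at least 2000 UMIs, rhesus SYCP2 was too low for a test.

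SYCP3 had 75.5, 46.6 and 26.4 CPM in baboon germ cells and at most 0.557 in somatic cells. It was higher in germ cells by 5.94 in the baboon (log2, SE 0.62, adjusted p = 0.00245) and by 5.85 in the rhesus (SE 1.02, adjusted p = 0.00300). Library 2B had no SYCP3 UMI in its 9 germ cells, while rhesus 1 had 16 UMIs (22.8 CPM) and library 2A had 5 (18.1 CPM). The SYCP3 gene (rhesus, Mmul_10, chromosome 11, 101518562 to 101529940, minus strand) overlaps CHPT1 on the opposite strand in RefSeq. Whether this overlap affects the counts was not tested.

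HORMAD1, a HORMA domain protein of the axis that marks unpaired chromosomes, had few UMIs. It had 6, 1 and 1 UMIs in the germ cells of the 3 baboon libraries, or 8.88, 2.74 and 0.357 CPM, and 5 UMIs in all baboon somatic cells. In the rhesus it had no UMI in germ cells, which allows up to 3.34 CPM (exact Poisson interval, 95%), and 1 UMI in all somatic cells. HORMAD1 did not pass the filter on low counts in either species and was not tested. When the filter was left off, it was higher in baboon germ cells by 4.40 (log2, SE 1.35, adjusted p = 0.0112). Its UMIs came mostly from library 1A.

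**Figure D1:**
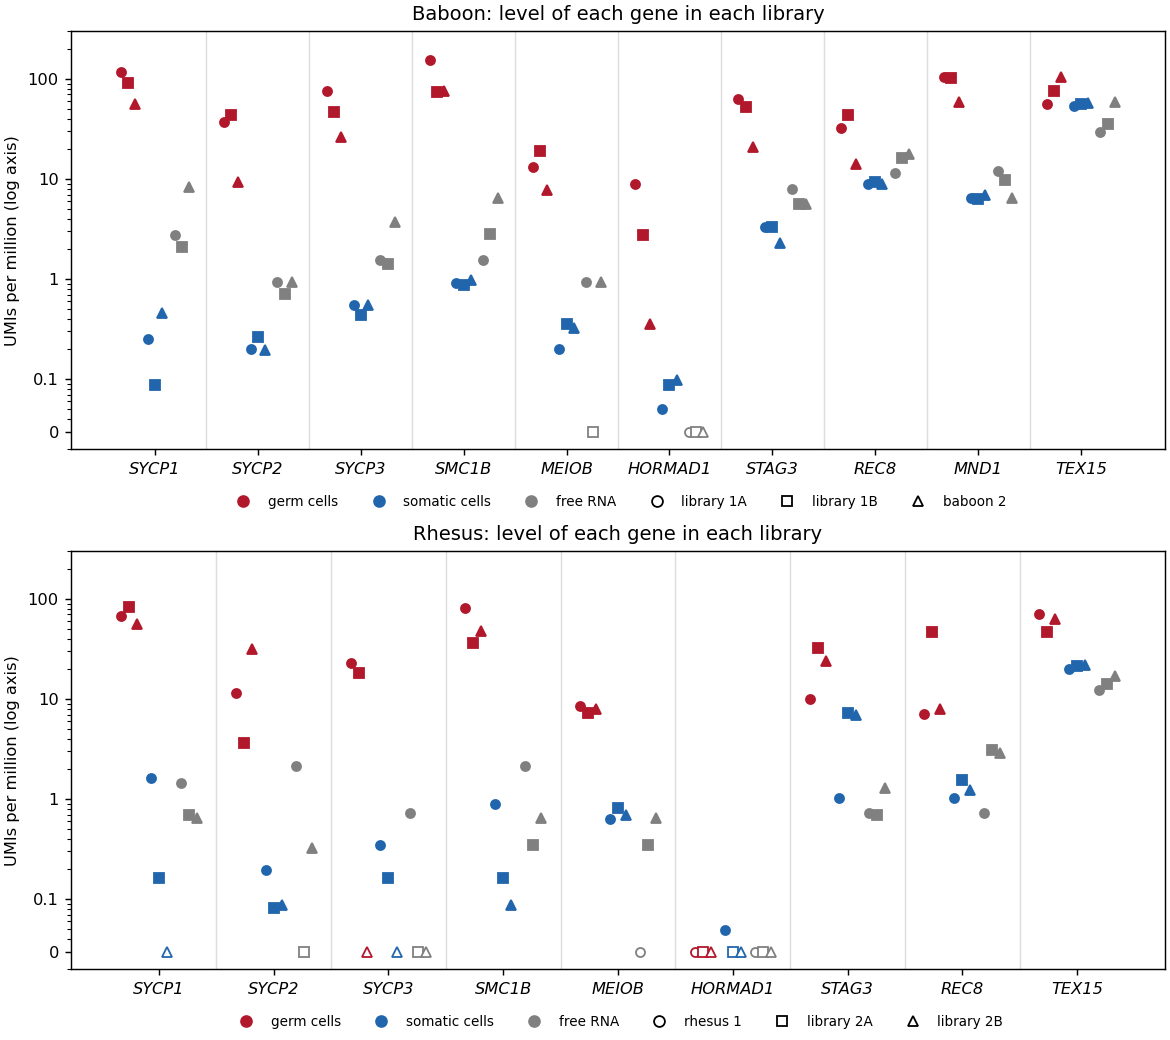
Level of each gene in CPM (log axis, exact zeros drawn at the bottom with open symbols) in germ cells, somatic cells and free RNA, with 1 point per library. For SYCP1, SYCP2 and SMC1B every germ cell point lies above every somatic point of its species, while for TEX15 in the baboon germ and somatic points lie close together.

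Of the meiotic cohesin subunits, SMC1B had the clearest difference. SMC1B, which replaces SMC1A in the meiotic ring, stood at 155, 74.0 and 76.7 CPM in germ cells of libraries 1A, 1B and baboon 2 and at 0.911, 0.881 and 0.975 in somatic cells. Its rhesus levels were 81.1, 36.2 and 47.8 in germ cells and 0.886, 0.162 and 0.0874 in somatic cells. No germ cell value came near a somatic value in either species. SMC1B was higher in germ cells by 6.32 in the baboon (log2, SE 0.52, adjusted p = 0.00140) and by 6.43 in the rhesus (SE 0.84, adjusted p = 0.000969).

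STAG3, the meiotic partner of the kleisin subunit, stood at 63.7, 52.1 and 21.0 CPM in baboon germ cells and at 3.29, 3.35 and 2.31 in somatic cells. It was higher in baboon germ cells by 3.34 (log2, SE 0.61, adjusted p = 0.0120). In rhesus 1, 2A and 2B, STAG3 had 9.96, 32.6 and 23.9 in germ cells and 1.03, 7.27 and 6.99 in somatic cells. Germ cells were above somatic cells within each rhesus library, but the somatic level of rhesus 2 came close to the germ cell level of rhesus 1. The rhesus difference in STAG3 did not pass the test (1.82, SE 0.90, adjusted p = 0.160), and passed with the animal as a block (2.11, adjusted p = 0.0186).

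REC8 is the kleisin that closes the meiotic cohesin ring. Its baboon levels were 32.6, 43.9 and 14.3 CPM in germ cells, against 8.86, 9.43 and 8.90 in somatic cells and 11.4, 16.2 and 17.6 in free RNA. In baboon 2 the germ cell value was below that of free RNA, while its cells with 3 or more gate genes had 18.3, and the difference of 1.01 in the baboon did not pass the test (log2, SE 0.53, adjusted p = 0.299). In the rhesus REC8 had 7.12, 47.0 and 7.97 in germ cells and 1.03, 1.54 and 1.22 in somatic cells, a difference of 3.54 that passed (SE 0.86, adjusted p = 0.0137). Of its 19 rhesus germ cell UMIs 13 came from library 2A, and without that library the difference was 2.25 and did not pass (adjusted p = 0.107), while SYCP3 was then too low for a test. The REC8 gene (rhesus, Mmul_10, chromosome 7, 86259929 to 86269078, plus strand) overlaps IPO4 on the opposite strand in RefSeq, and an effect on the counts was not tested.

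Of the recombination factors, MEIOB is a single-stranded DNA binding protein of the break ends. It stood at 13.3, 19.2 and 7.85 CPM in baboon germ cells and at 0.202, 0.353 and 0.325 in somatic cells, without overlap. MEIOB was higher in germ cells by 4.83 in the baboon (log2, SE 0.77, adjusted p = 0.00776) and by 3.05 in the rhesus (SE 0.88, adjusted p = 0.0275), where it rested on 9 germ cell UMIs. MND1, which with PSMC3IP helps the invading strand to pair, was analysed in the baboon only. MND1 had 105, 101 and 58.8 CPM in germ cells and 6.48, 6.26 and 6.95 in somatic cells, a difference of 3.17 (SE 0.45, adjusted p = 0.00575).

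TEX15, needed for break repair and for transposon silencing in male germ cells, was plentiful in both classes. In the baboon it stood at 56.3, 76.7 and 104 CPM in germ cells and at 54.0, 56.1 and 57.6 in somatic cells. Library 1A had nearly the same level in both classes, and baboon 2 had the highest germ cell value. The difference of 0.21 in the baboon did not pass (log2, SE 0.45, adjusted p = 0.807). In the rhesus TEX15 had 71.2, 47.0 and 63.7 in germ cells and 20.1, 21.4 and 21.8 in somatic cells, with no overlap. The rhesus difference of 1.12 missed the threshold (SE 0.38, adjusted p = 0.0527). It passed with the animal as a block (1.09, adjusted p = 0.0106) and with cells of at least 500 UMIs (1.18, adjusted p = 0.0497). With libraries as samples it also passed (1.15, adjusted p = 0.00744), but that setting counts both libraries of rhesus 2 as if they were separate animals.

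Of the 10 genes 9 were tested in the baboon and 7 were higher in germ cells, where 8.75% of all 17000 genes tested were (1488 genes, or 2301 with the animal as a block). In the rhesus 8 of 9 were tested and 6 were higher, where 12.8% of all 13028 genes tested were (1663 genes). None was lower in either species, where 0.794% of all genes tested were lower in the baboon and 14.2% in the rhesus. Genes with almost no UMIs in somatic cells pass the filter only through the germ cells. The share among those tested, and the fold changes and adjusted p-values of such genes, are therefore a description. With the animal as a block, all 8 tested in the rhesus were higher, where 16.9% of all genes tested were.

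**Figure D2:**
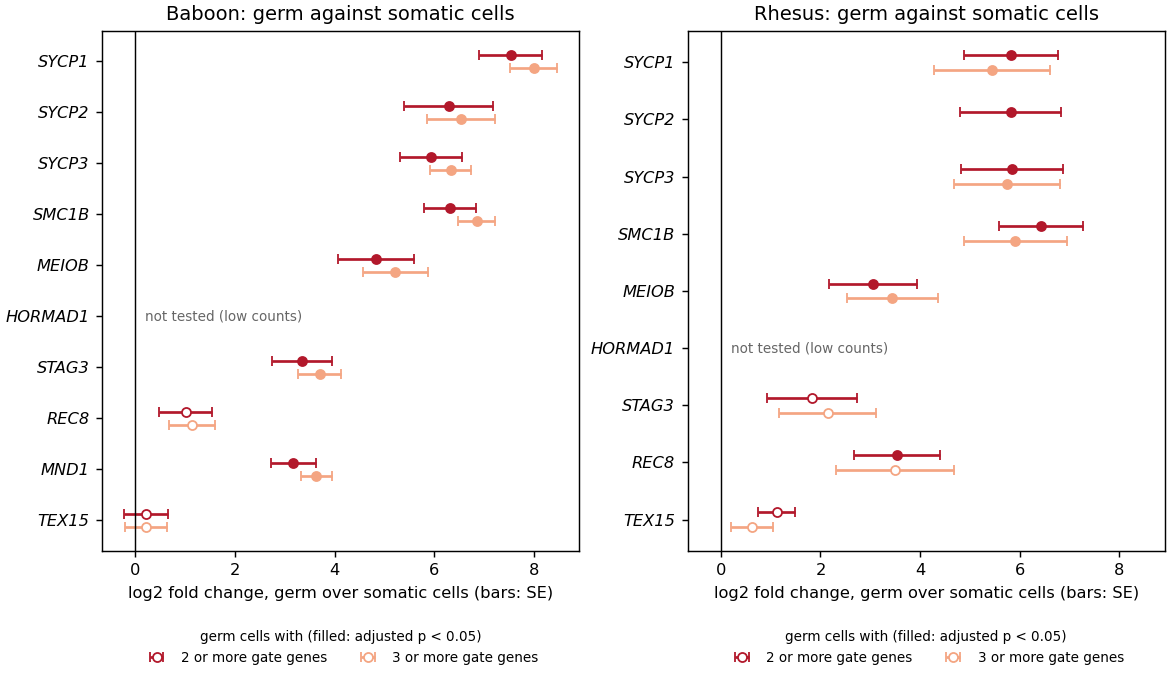
Log2 fold change of each gene in germ cells over somatic cells, with its standard error, from edgeR on 2 animals per species, for germ cells with at least 2 gate genes (dark) and with at least 3 (light). Filled points passed at an adjusted p under 0.05, and the baboon fold changes run from 0.21 for TEX15 to 7.53 for SYCP1 (8.0 with at least 3).

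The level of the genes depended on how many gate genes a baboon cell had. Summed over the 10 genes, it was 77.0 CPM in cells with none, 96.0 with 1 and 136 with 2 (102 cells), and between 554 and 734 with 3 to 6. In the rhesus the 9 genes summed to 28.8 with none, 141 with 1, 305 with 2 (96 cells), 216 with 3 (24 cells), 231 with 4 (4 cells) and 381 in the 1 cell with 5. Most of the sum in cells with none was TEX15 in both species. In baboon cells with none and with 1, TEX15 alone had 56.2 and 71.6 CPM, and SYCP1 had 0.323 and 0.752. In the same rhesus classes TEX15 had 20.9 and 53.6, and SYCP1 had 0.793 and 29.0. The step between 2 and 3 gate genes was seen in the baboon and not in the rhesus, and this difference was not tested.

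Baboon germ cells were therefore described apart for exactly 2 and for 3 or more gate genes, a split chosen after seeing the data. The name germ cells follows the gate, and values given for all 255 baboon germ cells include the 102 with exactly 2. In baboon 2, the 72 cells with exactly 2 had SYCP1 at 6.86 CPM, SMC1B at 3.12 and the summed genes at 122, and the 78 cells with 3 or more had 123, 175 and 715. DDX4, a germ cell RNA helicase, was at 3.74 and 192 in these groups, and the summed Sertoli cell markers were at 8449 and 1342. Somatic cells of baboon 2 had DDX4 at 1.85 and the Sertoli cell markers at 6563. By these markers its 72 cells with exactly 2 were nearer to somatic cells than to its 78 with 3 or more. In baboon 1 the 30 and 75 cells had the summed genes at 314 and 669 and the Sertoli cell markers at 4477 and 513. The cells with exactly 2 gate genes thus had less of the meiotic genes and of DDX4 and more of the Sertoli cell markers in both baboons. TEX15 was the exception in baboon 1, with 115 CPM in cells with exactly 2 gate genes and 56.1 with 3 or more, against 84.2 and 131 in baboon 2. In the rhesus the 2 groups had the summed genes at 305 and 228 and the Sertoli cell markers at 671 and 250.

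**Figure D3:**
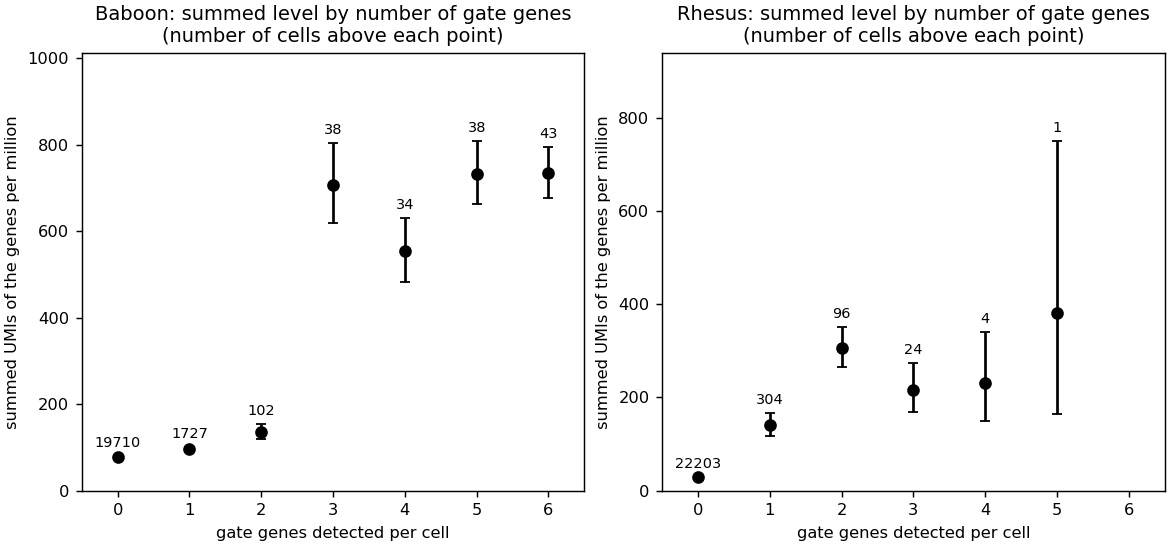
Summed level of the genes (CPM, over 10 baboon or 9 rhesus genes) by the number of gate genes detected in a cell, both animals pooled, with exact Poisson 95% intervals for counting error and the number of cells above each point. The baboon points stand at 136 for 2 gate genes and 707 for 3, and the rhesus points at 28.8 for none and 305 for 2.

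With germ cells limited to 3 or more gate genes, the same 7 of the 9 genes tested were higher in the baboon, where 17.2% of all genes tested were. The fold changes were 8.0 for SYCP1, 6.85 for SMC1B and 3.63 for MND1 (log2), while REC8 (1.14, adjusted p = 0.0975) and TEX15 (0.21, adjusted p = 0.730) did not pass. In the rhesus, with 29 such cells, SYCP1, SYCP3, SMC1B and MEIOB were higher of the 7 tested, where 8.5% of all genes tested were. SYCP2 was too low for a test there, and REC8 did not pass (3.50, adjusted p = 0.0722).

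Several of the genes were often counted in 1 germ cell at full depth. A baboon germ cell had a UMI of 3.1 of the 10 genes on average and of 9 at most, and 223 of 255 cells (87.5%) had at least 1 and 138 (54.1%) at least 3. A rhesus germ cell had 1.62 of the 9 on average and 6 at most, with at least 1 in 94 of 125 cells (75.2%) and at least 3 in 28 (22.4%). These counts grow with depth, so each cell was also thinned to 1000 UMIs, where germ cells averaged 0.443 genes and somatic cells 0.0616 in the baboon, and 0.312 and 0.0241 in the rhesus. At that depth only 2 of 255 baboon and 0 of 125 rhesus germ cells had 3 or more. The baboon values mix unlike cells. Of the 102 with exactly 2 gate genes, 17.6% had a UMI of any of the 10 genes at 1000 UMIs. With 3 to 6 gate genes this share ran from 39.5% to 60.5%. The rhesus germ cells of rhesus 2 were deeper (median 15788.5 UMIs) than those of rhesus 1 (4613) and averaged 2.95 and 1.34 genes at full depth, but 0.273 and 0.320 when thinned.

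At 1000 UMIs, SMC1B had a UMI in 10.2% of baboon germ cells (exact Clopper-Pearson 95% interval 6.77 to 14.6) and in 0.0761% of somatic cells. SYCP1 had one in 5.10% (2.74 to 8.56) and 0.0609%, and MND1 in 6.67% (3.93 to 10.5) and 0.604%. Without thinning the germ cell shares were 47.1%, 40.4% and 44.7%, at a median of 12133 UMIs. In the rhesus SYCP1 had a UMI in 8.80% of germ cells (4.48 to 15.2) and 0.0676% of somatic cells, and SMC1B in 8.0% (3.90 to 14.2) and 0.0540%. MEIOB, STAG3 and HORMAD1 had none in the 125 thinned rhesus germ cells. This limits cells with a UMI at that depth to 2.40% (3 cells), or 2.91% as the exact upper bound. At full depth STAG3 had a UMI in 12.8% and MEIOB in 6.40% of the same cells, and HORMAD1 in none. TEX15 had a UMI in 9.02% of germ cells (5.80 to 13.2) and 4.29% of somatic cells in the baboon, and 6.40% (2.80 to 12.2) and 1.60% in the rhesus. All intervals and limits cover counting error only.

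Among the somatic cells TEX15 was higher in those with Sertoli cell markers than in those with stroma markers. Somatic cells were placed by marker lists, which gave 7994 Sertoli-marker and 3875 stroma-marker cells in the baboon and 2942 and 9507 in the rhesus, with 7529 and 9031 left unplaced. In Sertoli-marker cells TEX15 stood at 63.2, 68.8 and 77.0 CPM in libraries 1A, 1B and baboon 2, and at 56.6, 69.7 and 68.0 in rhesus 1, 2A and 2B. In stroma-marker cells (DCN, LUM, PDGFRA, COL1A1, COL3A1 and C7, without PDGFRA in the rhesus) it stood at 5.11, 8.0 and 11.1, and at 4.38, 2.80 and 2.86. The unplaced cells had TEX15 at 53.4 in the baboon and 22.9 in the rhesus. Every library thus had several times more TEX15 in the Sertoli-marker cells, than in the stroma-marker cells, and the groups did not overlap.

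The free RNA held TEX15 at 29.7, 35.9 and 59.5 in the baboon libraries and at 12.3, 14.1 and 16.9 in the rhesus libraries, above the stroma-marker cells and below the Sertoli-marker cells in each library. Endothelial-marker cells had 2.71 (198 cells) and 2.53 (334 cells) in the baboon and the rhesus. In germ cells of the rhesus TEX15 had 71.2, 47.0 and 63.7, a range that overlaps that of the Sertoli-marker cells. TEX15 was higher in Sertoli-marker than in stroma-marker cells by 2.85 in the baboon (log2, SE 0.32, adjusted p = 0.00570) and by 3.86 in the rhesus (SE 0.37, adjusted p = 0.00511), a comparison added after seeing the data.

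Of the other genes tested in this comparison none passed. STAG3 had 3.17 CPM in Sertoli-marker and 0.626 in stroma-marker cells of the baboon (2.23, SE 0.67, adjusted p = 0.0828, and 0.0102 with the animal as a block), and 6.84 and 4.80 in the rhesus (0.32, adjusted p = 0.883). REC8 had 9.45 and 8.52 in the baboon (-0.04, adjusted p = 0.962), where free RNA of the 3 libraries together had 13.8. TEX15 was thus 1 of 5 genes of the set tested in the baboon and 1 of 2 in the rhesus that were higher, where 6.9% of all 14480 genes and 6.99% of all 10984 were.

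**Figure D4:**
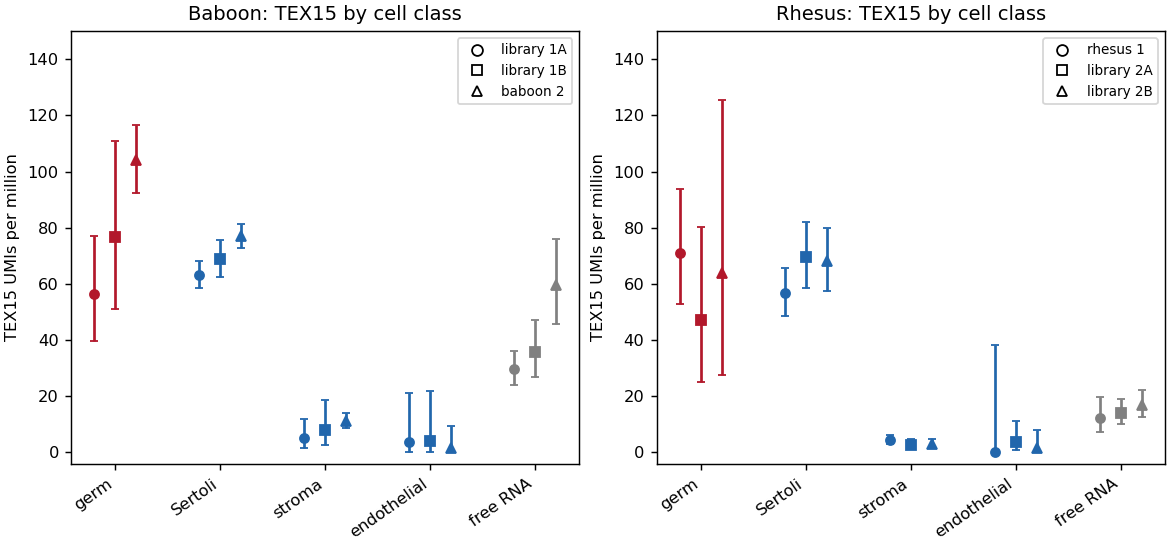
TEX15 in CPM in germ cells, in somatic cells placed by Sertoli, stroma and endothelial cell markers, and in free RNA, with 1 point per library and exact Poisson 95% intervals for counting error. Sertoli-marker cells sit at 56.6 to 77.0 in all 6 libraries, where rhesus germ cells sit at 47.0 to 71.2, and stroma-marker cells sit at 2.80 to 11.1.

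MND1 was also counted in dividing somatic cells. Somatic cells with at least 3 of 8 cell cycle genes (MKI67, TOP2A, CCNB1, CDK1, BUB1, CENPF, TPX2 and RRM2) were called cycling, 15 cells in baboon 1 and 30 in baboon 2. They had MND1 at 91.8 and 63.7 CPM, against 6.15 and 5.48 in somatic cells with none of the 8. Both cycling values lay far above both others, and the difference was 3.31 on the log2 scale (SE 0.55, adjusted p = 9.79e-05). Cycling cells were deeper, with a median of 7294 against 2011 UMIs, and MND1 had a UMI in 22 of the 45. Cells with 1 or 2 cell cycle genes, which were also deeper (median 4052 UMIs), had MND1 at 6.70 and 8.02. The level in cycling somatic cells rested on 37 UMIs. All germ cells, including those with exactly 2 gate genes, had MND1 at 104 CPM in baboon 1 and 58.8 in baboon 2. Cycling germ cells with at least 3 gate genes, given below, had more MND1 than cycling somatic cells in both baboons.

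REC8, STAG3 and TEX15 were the other 3 genes tested in this comparison and did not pass in the baboon (adjusted p = 0.999 for each), so 1 of 4 was higher, where 1.14% of all genes tested were. REC8 had 0 and 10.6 CPM in cycling and 8.81 and 9.27 in other somatic cells. In the rhesus, with 83 cycling cells, the 3 genes tested did not pass (adjusted p from 0.905 to 0.954), where 1.9% of all genes tested were higher. SYCP1, SYCP2, SYCP3 and SMC1B had 1 UMI each in the 45 baboon cycling cells, and MEIOB and HORMAD1 had none.

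**Figure D5:**
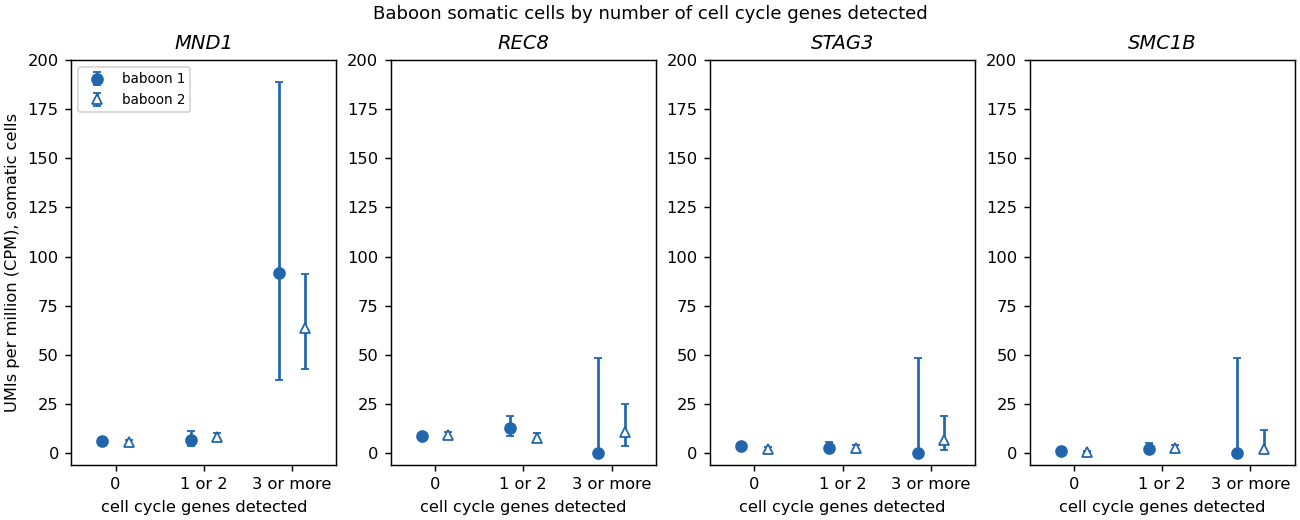
CPM of MND1, REC8, STAG3 and SMC1B in baboon somatic cells by the number of cell cycle genes detected, 1 point per animal with exact Poisson 95% intervals for counting error. MND1 sits at 91.8 and 63.7 in cells with 3 or more and below 10 in the others, and REC8 sits at 0 and 10.6 in cells with 3 or more and at 8.81 and 9.27 in cells with none.

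Within baboon germ cells with at least 3 gate genes, the genes were set beside the cell cycle, as values with no test. The 74 cycling cells had the summed genes at 841 CPM in baboon 1 and 762 in baboon 2, and the 68 cells with 1 or 2 cell cycle genes had 538 and 585. SYCP1 was at 189 and 138 in the first group and at 64.1 and 87.5 in the second. SMC1B was at 177 and 191 against 120 and 127, and MND1 at 147 and 138 against 87.5 and 99.6. The values of these 3 genes were the larger in the cycling cells of both baboons, whose median depth was 15768.5 UMIs against 11010. Only 11 germ cells of this kind had no cell cycle gene, with the summed genes at 481 and 841. SYCP2, taken here from germ cells with 2 or more gate genes, did not show one order in the baboons. In baboon 1 it had 31.2 CPM in the cycling cells, on 13 UMIs, and 51.8 in those with 1 or 2 cell cycle genes. The exact Poisson intervals of these values overlapped (16.6 to 53.3 and 33.8 to 75.9). In baboon 2 the cycling cells had the larger value, 24.1 against 3.74, the latter on 5 UMIs. Rhesus germ cells (2 or more gate genes) did not show one order, with the summed genes at 341 and 246 in the 39 cycling cells of rhesus 1 and 2 and at 223 and 328 in the 55 with 1 or 2 cell cycle genes. SYCP1 had 66.2 and 70.3 against 67.7 and 109 in these rhesus cells, the last from 5 cells.

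Germ cells were also split by 2 lists of spermatogonial genes, 8 of undifferentiated spermatogonia (PIWIL4, DIRAS3, EGR4, TSPAN33, FGFR3, UTF1, MSL3 and ID4) and 8 of progenitors and differentiating spermatogonia (NANOS3, L1TD1, KIT, DMRT1, STRA8, UPP1, DMRTB1 and SOX3). In the baboon 120 cells leaned to the first list, 31 to the second and 104 to neither. SYCP1 had 122 CPM in the cells of the first list in both baboons and 41.4 and 33.3 in those of the second, where it rested on 3 and 12 UMIs. The difference of -1.73 (second minus first, log2, SE 0.43) did not pass (adjusted p = 1.00) and passed with the animal as a block (-1.73, adjusted p = 0.00408). SYCP2 had 41.4 and 2.77 in the second and 44.1 and 25.0 in the first (-1.59, adjusted p = 1.00).

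The other 6 of the 8 genes tested differed by at most 0.32 in size between these states, and TEX15 had 82.8 and 77.6 against 62.3 and 140. With edgeR, 0% of all 7664 genes tested passed, with 191 at an unadjusted p under 0.05, and DESeq2 also called 0. With the animal as a block 119 genes passed. In the rhesus, where 12 cells leaned to the second list and 57 to the first, none of the 9 genes could be tested and 0.055% of all 1819 genes tested passed (1 gene). No gene of the set was shown to differ between the states in the main comparison.

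Other genes of meiosis were taken from a list of 40. In the baboon 28 of the 33 matched were tested. Of these 14 were higher in germ cells and 0 lower, where 8.75% and 0.794% of all genes tested were. Their median was 2.38 on the log2 scale against -0.12 over all genes tested. In the rhesus 19 of 30 were tested, and 8 were higher and 0 lower, where 12.8% and 14.2% of all genes tested were. The median there was 1.54 against -0.18. Of those that act before or at the break, REC114, of the complex that triggers breaks, was higher by 7.98 in the baboon (SE 1.03, adjusted p = 0.00444) and by 6.47 in the rhesus (SE 0.86, adjusted p = 0.000993). SPO11, the enzyme that cuts the DNA, was higher by 6.41 in the baboon (adjusted p = 0.0167), on 7.69 and 2.14 CPM in germ cells. MEI1, also needed for breaks, was higher by 4.76 in the baboon (adjusted p = 0.0160). REC114, SPO11 and MEI1 had at most 0.162 CPM in somatic cells of either baboon. Genes this low there pass the filter only through the germ cells, so the counts and fold changes of such listed genes are a description.

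Of the genes that act after the break, SPATA22, the partner of MEIOB, was at 257 and 74.5 CPM in baboon germ cells and at 147 and 92.1 in rhesus germ cells, and was higher than in somatic cells by 4.90 and 3.20 (adjusted p = 0.00544 and 0.00311). TEX11, a crossover factor, was higher by 5.73 and 5.28 (adjusted p = 0.00968 and 0.0195). M1AP (5.91) and HSF2BP (3.36), which act in crossover formation and in meiotic break repair, were higher in the rhesus (adjusted p = 0.00204 and 0.0369). HSF2BP had only 4.27 and 9.95 CPM in germ cells of rhesus 1 and 2. TEX11 had 24.2 and 4.98 there and 4.81 and 3.21 in baboon germ cells, so the differences of both genes rest on few UMIs. SYCE3, of the central element that SYCP1 joins, was higher in the rhesus by 2.74 (adjusted p = 0.00447), and ZCWPW1, a histone reader, by 3.30 (adjusted p = 0.000633). TERB2, which ties telomeres to the nuclear envelope, was higher in the baboon by 6.18 (adjusted p = 0.00677), and so was TDRD9, a helicase of transposon silencing, by 4.03 (adjusted p = 0.00900). SGO2, which guards the cohesin of the centromere, was higher by 3.75 in the baboon and 3.33 in the rhesus (adjusted p = 0.00719 and 0.00490).

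Recombination factors that body cells also use were a list of 18. In the baboon 3 of 16 tested were higher, BRCA2 (3.28), TRIP13 (2.15) and RAD51C (1.99), and 0 were lower. The median was 0.54, and 8.75% of all genes tested were higher and 0.794% lower. In the rhesus 6 of 17 were higher and 2 lower, with a median of 1.38, where 12.8% of all genes tested were higher and 14.2% lower. Among those higher were BRCA2 and TRIP13 (2.88 each), RAD51C (2.27), BRCA1 (1.95) and RPA2 (1.60). RPA3 (-1.49) and MUS81 (-1.46) were lower. BRCA2 acts in the repair of broken DNA ends, and TRIP13 removes HORMA domain proteins from the axis.

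The cohesin of body cells was a list of 10 genes, all tested in both species. None was higher or lower in baboon germ cells (edgeR, 1 at an unadjusted p under 0.05, median -0.38), and 1 was higher with the animal as a block. With 3 or more gate genes 1 was higher and 1 lower, where 17.2% of all genes tested were higher and 2768 of 16978 lower. In the rhesus SMC3 (1.82), the ring subunit that meiotic and body cohesin share, and WAPL (1.20), which releases cohesin, were higher. STAG2 (-2.02), the body cell counterpart of STAG3, and PDS5B (-1.42) were lower in the rhesus, and the median of the list was -0.13. These 2 higher and 2 lower of 10 lie near the shares of all genes tested, 12.8% and 14.2%. In rhesus 1 and rhesus 2 STAG2 had 19.9 and 19.9 CPM in germ cells and 42.2 and 78.0 in somatic cells.

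The genes whose level was most like the sum of the set were found by the Pearson correlation of log2(CPM + 1) over sums of animal and cell class. In the baboon they were PRDX5 (0.972), APEX1 (0.967), BUD23 (0.956), TRIM13 (0.954) and AKIRIN1 (0.95), over 13 sums and 15477 genes. In the rhesus they were NASP (0.944), TOPORS (0.940), RHBDD2 (0.938), IMP4 (0.937) and TSGA10 (0.933), over 15 sums and 12131 genes. TEX15, which made up most of the sum in somatic cells, correlated with it at 0.755 in the baboon and 0.942 in the rhesus. For SMC1B the values were 0.869 and 0.787. The sums of animal and cell class share libraries and differ in depth, and all these values are a description.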

How the data were processed

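Single-cell RNA of testis was measured in 6 libraries of 2 baboons and 2 rhesus monkeys. The authors aligned reads to Panubis1.0 or Mmul_10, per the methods of the study, and counted UMIs with Cell Ranger 3.1.0. Cell Ranger and Seurat 3.2.3 stand in the submitters' processing notes. The deposited values are raw whole-number UMI counts of all barcodes, with no normalization and no cell calling. Barcodes with at least 1000 UMIs and 200 genes were taken as cells. An alternative cutoff was percentile 99 of the top 5000 barcodes divided by 10. Doublets, marked at 0.8% per 1000 cells by comparison with simulated doublets (4.02% to 8.32% of a library), were kept, and left out as an alternative. Cells were assigned to classes by detected genes. A somatic cell was placed with a marker list when at least 2 of its genes were detected, and 2 more than of any other list. For the split by spermatogonial lists and for shares, each cell was thinned to 1000 UMIs with a fixed seed. Members and lists were chosen with earlier results of these data known.

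The UMIs of each class were added up within an animal. Baboon and rhesus sums were fitted separately by edgeR 4.0.16 (R 4.3.3), using its quasi-likelihood test, TMM and filterByExpr, with Benjamini-Hochberg adjustment over all genes tested and a threshold of 0.05. Both libraries of an animal were summed. Deviations from the class means were correlated between the classes of an animal (0.193 to 0.636), which pair by animal, and the animal was a block in an alternative. Other alternatives were DESeq2 1.42.0, no filter, libraries as samples, each library left out, 500 or 2000 UMIs, the percentile cutoff, 3 gate genes, and cells with 1 gate gene counted as somatic. When 200 genes of simulated counts were given a log2 change of 2, the germ against somatic comparison recovered 88.5% in the baboon (17492 genes) and 92.0% in the rhesus (13652 genes). Over all comparisons recovery ran from 78.5% (states, rhesus) to 94.0% (Sertoli-marker cells, baboon). The changed genes were drawn only from those above a minimum of expected UMIs, and no animal effect was simulated. The recovery therefore does not cover genes with few UMIs, as several of the set were. Sequences and gene positions came from RefSeq (Mmul_10, Panubis1.0). Python 3.11.15, numpy 2.4.6, scipy 1.17.1 and pandas 2.3.3 were used. The genes named are all 10 members, up to 8 genes per list and species with the largest change among those that passed, and the 5 most alike in level. The values of 1 listed gene are not reported here.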

Additional observations from a re-analysis of the deposited data

Results flagged for a closer look

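Cells with exactly 1 gate gene entered no main comparison (they were added to the somatic cells in an alternative). In the rhesus, 3 values in them had exact Poisson intervals wholly above those of somatic cells in both animals. SYCP3 stood at 7.51 CPM in these 304 cells (7.27 in rhesus 1 and 8.20 in rhesus 2, on 5 and 2 UMIs), against 0.345 and 0.0840 in somatic cells. SMC1B stood at 25.8 (30.5 and 12.3, on 21 and 3 UMIs), against 0.886 and 0.126. Of these 304 cells 12.5% were marked as doublets, against 6.40% of rhesus somatic cells. The 9 genes summed to 140.6 (167 and 65.6), against 25.9 and 31.2. Markers of early germ cells that the gate does not use (DDX4, DND1, RHOXF1, SALL4 and MAGEA4) were also raised in sum, while MAGEA4 had no UMI in these cells. They summed to 234 and 176 CPM in these cells of rhesus 1 and 2. Somatic cells had 14.3 and 11.7, and germ cells 401 and 627, so the class may hold germ cells that the gate missed, which was not tested. Its Sertoli cell markers summed to 3115 and 2160 CPM, nearer to somatic cells (3550 and 2855) than to germ cells (659 and 216). Its stroma markers, at 1669 and 1664, lay between germ cells (370 and 174) and somatic cells (4779 and 3785). The gate gene that was detected was SOHLH1 in 185 of these cells, where the genes summed to 175, and MAEL in 67, where they summed to 105. In the baboon 1305 of the 1727 cells of this kind had DAZL, and the 10 genes summed to 93.8 there, against 77.0 in somatic cells. TEX15 made up most of these baboon sums, with 71.6 in all 1727 cells and 56.2 in somatic cells.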

How the results depend on the processing

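Of 385 fold changes of the genes under an alternative, 360 kept their direction and their side of the threshold, 16 reversed, 7 newly passed and 2 no longer passed. Alternatives in which a gene was not tested are left out of these counts, as for rhesus SYCP3 in germ against somatic cells with libraries as samples. The cause was not tested for any of these. None of the 16 was called. In the comparison of germ cell states in the baboon, SYCP3 was -0.049 at 2000 UMIs, SMC1B 0.11 at 2000 UMIs and 0.31 at 500 UMIs, STAG3 0.022 and REC8 0.090 with the animal as a replicate block, and MND1 0.059 with DESeq2, 0.033 without doublets and 0.52 at 500 UMIs. Without baboon replicate 1 or 2 (libraries 1A and 1B), the states differed by -0.17 to 0.14 in SYCP3, -0.30 to 0.23 in SMC1B, -0.89 to 0.36 in STAG3 and -0.48 to 0.16 in MND1. Between Sertoli-marker and stroma-marker cells of the baboon, REC8 was 0.056 with no filter and 0.0097 at 500 UMIs, and MND1 ran from -0.10 to 0.58 without 1 library. STAG3 in the rhesus was -0.27 at 2000 UMIs. Of 78 gene counts 24 moved by over 1.5 times. Germ against somatic cells gave 1623 genes in the baboon, 3309 with the animal as a block, 3669 with no filter, 4121 with libraries as samples and 5691 with 3 or more gate genes. States gave 0 in the baboon and 119 with the block. In the rhesus they gave 1, and 113 with the block, 26 with no filter, 5 with DESeq2, 9 with libraries, 3 without either library of rhesus 2, 0 at 500 or 2000 UMIs and 5 without doublets. Cycling cells gave 205 in the baboon and 308 with the block, and 257 in the rhesus, 160 with DESeq2, 153 at 2000 UMIs and 111 to 221 without 1 library (111 without rhesus replicate 3). Sertoli-marker cells gave 2661 in the baboon, 7202 with the block, 4522 with libraries and 1201 at 2000 UMIs, and 1647 in the rhesus, 3638, 2982 with no filter and 4194. Of 133 shares 16 moved outside the exact 95% interval of the main share. At 2000 UMIs the baboon shares were 0.413% for HORMAD1, 13.6% for MND1, 16.9% for SMC1B, 8.26% for STAG3, 14.05% for SYCP1, 5.37% for SYCP2 and 16.5% for TEX15. With 3 or more gate genes SMC1B was 17.0% in the baboon, and REC8 and TEX15 were 0% in the rhesus. Without 1 library the baboon shares ran from 0% to 1.07% for MEIOB, 5.50% to 10.5% for MND1, 5.71% to 11.5% for SMC1B and 0.535% to 3.81% for STAG3, and the rhesus shares from 0% to 3.57% for SYCP3 and 0% to 7.14% for TEX15. With baboon replicate 3 or rhesus replicate 1 left out only 1 animal remained, and no test was made. Beside the values given, the replicate block changed no other call of the 10 genes, and in the lists it moved no count of calls by over 1.5 times except in the baboon, body cell cohesin higher and other meiotic genes lower (0 to 1 each). With 3 or more gate genes, body cell cohesin had 1 higher and 1 lower and the shared recombination factors 6 and 2 in the baboon, and the other meiotic genes 18 and 2 there and 5 and 0 in the rhesus. Of all genes tested with that gate, 17.2% were higher and 2768 of 16978 lower in the baboon, and 8.5% and 1416 of 12371 in the rhesus. With 255 and 125 germ cells, a count of 0 at 1000 UMIs limits the share with a UMI at that depth to 1.18% and 2.40% (3 cells). The exact upper bound in the rhesus was 2.91%. Such a count says nothing of cells that express a gene below that limit of detection.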

Other observations

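In rhesus cells with exactly 1 gate gene, SYCP1 had a UMI in 26 of 304 cells (8.55%, exact interval 5.66 to 12.3), at a median of 2167 UMIs per cell. All 26 were among the 234 cells of rhesus 1 (11.1%), and none was among the 70 of rhesus 2, which allows a share with a UMI of up to 4.29% (3 cells, or 5.13% as the exact upper bound). In rhesus somatic cells SYCP1 had a UMI in 0.144%, at a median of 1624 UMIs. In baboon cells with exactly 1 gate gene it had one in 7 of 1727 cells (0.405%, at a median of 3482 UMIs), against 0.0964% in somatic cells. The 41 baboon cells in which the gate gene was MAEL had the genes at 131 CPM, the highest sum of the 6 kinds of such cells, which otherwise ran from 75.3 (MAGEB2, 13 cells) to 101 (PIWIL2, 228 cells).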
